A study of Homo sapiens with 6 samples.

Results

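The genes described here are 54 members of the Wnt and beta-catenin pathway, chosen by name from their known roles and with earlier results of these data known. They run from the enzymes and carriers that release Wnt ligands to the TCF/LEF factors and Groucho corepressors in the nucleus. Of the 54 genes, 45 had at least 1 splicing event covered in all 6 libraries, against 30275 gene symbols in the whole table, and 43 had enough reads for a test of their summed reads. The cells were SKNBE2, a human neuroblastoma line whose labels give amplified MYCN as the genotype and neuroblast as the cell type. The Control group had 3 libraries, and the DFMO group had 3 libraries from cells kept for 4 days in 250 µM DFMO (difluoromethylornithine), which blocks ornithine decarboxylase and so the synthesis of polyamines. All 6 libraries thus come from 1 amplified line, the labels name no vehicle for the Control cells, and nothing says that the 3 libraries of a group came from separate cultures, so the p-values measure only the spread between these libraries. The comparison asked how transcripts of the pathway differed with the drug, in how they were spliced and in how many reads they gave.

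Wnt ligands are lipid-modified by PORCN and carried out of the cell by WLS. They bind a Frizzled receptor together with the coreceptor LRP5 or LRP6, and Dishevelled proteins then draw AXIN1 to the membrane. Without ligand, AXIN1, APC, GSK3A or GSK3B and casein kinase 1 alpha (CSNK1A1) form the destruction complex, which phosphorylates beta-catenin (CTNNB1) and marks it for degradation. With ligand, beta-catenin builds up and joins TCF/LEF factors in the nucleus, where BCL9, BCL9L and the Pygopus proteins help it to activate genes and the TLE (Groucho) proteins repress the same sites in its absence. In the neural crest, from which neuroblastoma arises, the pathway takes part in the induction and the fate choice of the cells.

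The data were percents of alternative splicing, with the reads behind each percent. For an exon, the percent is the share of transcripts that include it; for an intron, the share that retain it; and for an alternative donor (5′ splice site) or acceptor (3′ splice site), the share that use it. The events that the results turn on are shown first. They are a coding exon of 24 nt in CSNK1G3, a donor pair in DVL1 that differs by 75 nt, an acceptor pair in TCF7L2 that differs by 15 nt and a coding exon of 18 nt in CTNND1. They are read from GENCODE transcripts on GRCh38, 5′ to 3′ on the transcribed strand, with the alternative stretch in capitals and its neighbouring exon bases in lower case.
CSNK1G3: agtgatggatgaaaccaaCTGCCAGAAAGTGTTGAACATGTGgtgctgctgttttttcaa
DVL1: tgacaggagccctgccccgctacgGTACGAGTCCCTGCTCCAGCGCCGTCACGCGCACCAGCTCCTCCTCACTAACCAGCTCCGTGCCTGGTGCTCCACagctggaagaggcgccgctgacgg
TCF7L2: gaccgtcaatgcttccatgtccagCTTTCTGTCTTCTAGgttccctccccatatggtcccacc
CTNND1: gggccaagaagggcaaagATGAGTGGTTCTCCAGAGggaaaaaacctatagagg
The CSNK1G3 exon lies at chr5:123605339-123605362 (plus strand), the DVL1 stretch at chr1:1339287-1339361 (minus strand), the TCF7L2 stretch at chr10:113150983-113150997 (plus strand) and the CTNND1 exon at chr11:57806461-57806478 (plus strand). All 4 stretches are coding in annotated transcripts and have lengths that are multiples of 3. The DVL1 capitals begin with GT, the donor dinucleotide of the shorter form, and the TCF7L2 capitals end with AG, the acceptor dinucleotide of the shorter form.

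Event reads, summed over the entries of all classes, ran from 77648922 to 103250467 per library. Markers of the noradrenergic neuroblastoma state were covered for 14 of 14 genes, and their summed reads per 1e+06 event reads were 4430 to 4590 in the Control libraries and 5090 to 5130 in the DFMO libraries. Mesenchymal neuroblastoma markers were covered for 5 of 12 genes, with 188 to 193 against 196 to 214 and with RUNX2 at 0 in every library. Schwann and glial markers were covered for 1 of 6 genes, with 0.612 to 0.659 against 0.673 to 0.91, and SOX10 was at 0. Of 9 fibroblast, endothelial and immune markers only DCN was covered, at 38.8 to 41.6 against 25.9 to 28.2, and PECAM1 was at 0. The part of these marker levels in the results below was not tested. In bulk RNA, fewer cells of a type and less RNA per cell cannot be told apart.

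Most covered events of the members were almost always or almost never included, retained or used. Of 2320 events listed for the 54 genes, 1607 were covered in all 6 libraries, and of these 884 had a mean percent of 5 or less and 615 of 95 or more. The remaining 108 entries, from 31 genes, were tested: 48 exons, 17 introns, 24 acceptor forms and 19 donor forms. Both forms of a splice site pair are entries of their own, so the 108 stand for 87 separate sites or groups of sites. A tested entry was called when its limma adjusted p was below 0.05 and its group means differed by at least 10 points. On this rule 2.77% of the 18203 entries tested over all genes were called, and 5 of the 108 member entries were called, 2 higher and 3 lower with DFMO. These 5 entries stand for 3 separate changes, in CSNK1G3, DVL1 and CSNK1D. By class, 2 of 48 exons were called (3.45% of all exons tested), 1 of 17 introns (3.8% of all introns), 0 of 24 acceptor forms (1.17%) and 2 of 19 donor forms (1.93%). The 0 for acceptors is from limma at both thresholds, and 2 acceptor entries, the TCF7L2 pair, passed the adjusted p alone. At an adjusted p below 0.05 and whatever the size, 11 of the 108 member entries passed, beside 4.93% of all entries. The groups did not overlap for 24 of the 108 entries, against 22.5% over all genes. The median difference was 0.18 points for the members and 0.57 points for all entries, and the median size without sign was 2.96 and 3.34 points. The plot of DFMO against Control percents shows how near the line of no difference most of the entries lay.

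**Figure D1:**
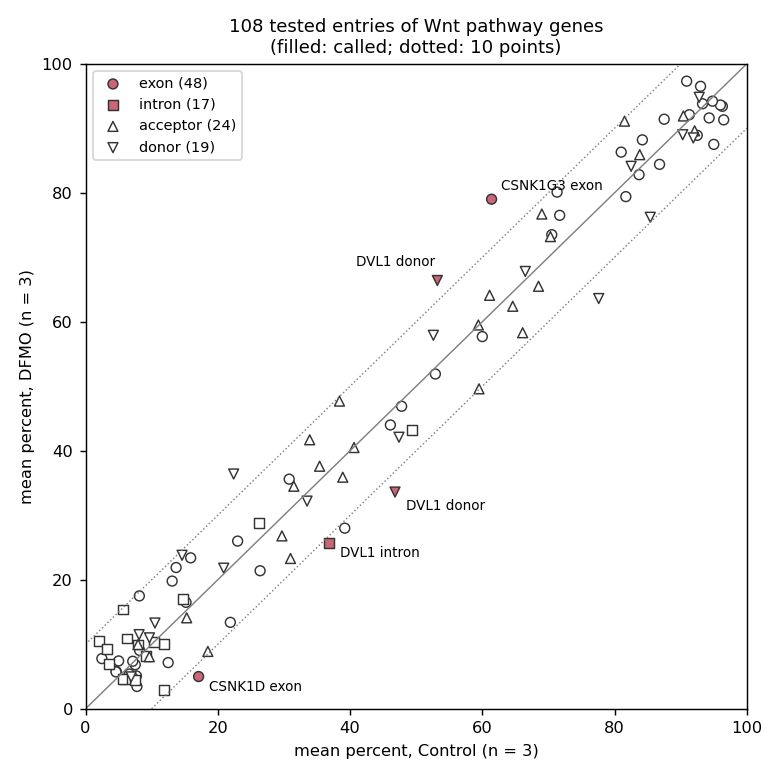
Mean percent in Control (x axis, n = 3) against mean percent in DFMO (y axis, n = 3) for the 108 tested entries of Wnt pathway genes, by event class; filled symbols were called and the dotted lines mark differences of 10 points. CSNK1G3 and 1 form of the DVL1 donor pair lie above the upper dotted line; the other DVL1 form, the DVL1 intron and the CSNK1D exon lie below the lower one.

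CSNK1G3, which encodes casein kinase 1 gamma 3, a membrane-bound kinase that phosphorylates the tail of LRP6, had the largest difference of any member event tested. Its 24-nt exon, included in 6 annotated coding transcripts, stood at 64.7%, 58.1% and 61.4% in the Control replicates 1, 2 and 3 and at 80.5%, 74.3% and 82.1% in the DFMO replicates 1, 2 and 3. The lowest DFMO library thus lay above the highest Control library. The means were 61.4% ± 3.32 and 79.0% ± 4.13 (SD, n = 3 each), a rise of 17.6 points (log2 odds 1.24, SE 0.30, limma adjusted p = 0.0265), on 118 to 191 reads per library. The difference stayed between 15.9 and 19.9 points when a library was left out, but the call was lost without Control replicate 1 (adjusted p = 0.0545), Control replicate 2 (0.103), Control replicate 3 (0.0883), DFMO replicate 1 (0.076) or DFMO replicate 3 (0.0773), and also when the fit had no variance trend (0.145). The other tested events of the gene, exons of 90 nt and 41 nt and a pair of acceptors 3 nt apart, had overlapping groups.

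DVL1 encodes a Dishevelled scaffold protein, which passes the signal from Frizzled to the destruction complex. Its longer donor, which adds the 75 nt shown above, was used in 45.8%, 46.1% and 48.5% of transcripts in the Control replicates 1, 2 and 3 and in 30.7%, 33.8% and 36.3% in the DFMO replicates 1, 2 and 3. All 3 DFMO libraries were lower than all 3 Control libraries. The means were 46.8% ± 1.46 and 33.6% ± 2.79 (SD, n = 3 each), a difference of -13.2 points (log2 odds -0.80, SE 0.23, limma adjusted p = 0.0265), on 191 to 335 reads per library. The shorter form is the other side of the same pair, at 53.2% and 66.4%, and its call is not a second result. The donor call was lost without Control replicate 1 (adjusted p = 0.0557), Control replicate 2 (0.063), Control replicate 3 (0.108), DFMO replicate 1 (0.19) or DFMO replicate 2 (0.0895), on the percent scale (0.0507), without the variance trend (0.445) and without the filter on the mean percent (0.055).

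The DVL1 intron of 708 nt at chr1:1338654-1339361 begins with that 75-nt stretch, and its retention was called too, at 36.8% ± 3.48 in Control and 25.7% ± 2.91 with DFMO (-11.1 points, limma adjusted p = 0.00295). The reads of this intron lay almost wholly at 1 end. Its upstream end, next to the donor pair, had 90 to 178 reads per library, and its downstream end had 0 to 3, so the downstream end held 0.599% of the reads across both ends. The intron contains the 75-nt stretch, so its percent and that of the longer donor share that stretch, and retention of the whole intron was barely detectable at this depth. Its difference fell below 10 points without Control replicate 2 (-9.88) or DFMO replicate 1 (-9.53), and its adjusted p rose to 0.056 on the percent scale and 0.255 without the variance trend. Summed reads of DVL1 fell (given below), while these percents are shares of the DVL1 reads in each library.

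CSNK1D encodes casein kinase 1 delta, which phosphorylates Dishevelled and other pathway proteins. An exon of 236 nt at chr17:82246198-82246433 (minus strand) was included at 14.3%, 18.6% and 18.4% in the Control replicates 1, 2 and 3 and at 5.23%, 6.40% and 3.36% in the DFMO replicates 1, 2 and 3. The groups lay far apart relative to their spread, with means of 17.1% ± 2.42 and 5.0% ± 1.53 (SD, n = 3 each; -12.1 points, log2 odds -1.97, SE 0.37, limma adjusted p = 0.00681), on 189 to 356 reads per library. This call was lost without the variance trend (adjusted p = 0.0983) and held in each of the other settings run, including every omission of a library. In GENCODE the stretch lies within exons of 2 transcripts, a processed transcript and a retained-intron transcript, and is coding in none, and its length is not a multiple of 3. It reads, with no letter singled out:
CSNK1D: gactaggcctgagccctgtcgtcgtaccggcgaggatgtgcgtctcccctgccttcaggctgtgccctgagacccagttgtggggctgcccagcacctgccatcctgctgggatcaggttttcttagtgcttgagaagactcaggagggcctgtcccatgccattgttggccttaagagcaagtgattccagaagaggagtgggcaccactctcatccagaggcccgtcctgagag
The intron that surrounds it, 4043 nt at chr17:82244832-82248874, was retained at 11.9% ± 5.64 in Control and 2.85% ± 2.53 with DFMO, without passing the test (limma adjusted p = 0.134). Another exon of the gene, of 482 nt, was at 12.5% and 7.16% (adjusted p = 0.209). All 3 entries had lower means with DFMO, and their groups did not overlap.

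TCF7L2, a factor that brings beta-catenin to its target genes, held 9 of the 108 entries and was the only TCF/LEF gene with a tested entry. The acceptor that adds the 15 nt shown above was used at 18.2%, 21.8% and 15.6% in the Control replicates 1, 2 and 3 and at 8.31%, 8.19% and 10.2% in the DFMO replicates 1, 2 and 3. The groups did not overlap, and the means were 18.5% ± 3.12 and 8.89% ± 1.12 (SD, n = 3 each). The difference of -9.63 points passed the adjusted p (limma, 0.0136; log2 odds -1.20, SE 0.31) but stayed under the 10 points that a call asked for. It passed 10 points when Control replicate 3 (-11.1) or DFMO replicate 3 (-10.3) was left out, while without Control replicate 1 (0.0556), Control replicate 2 (0.165), DFMO replicate 1 (0.103) or DFMO replicate 2 (0.058) the adjusted p missed 0.05, as it did on the percent scale (0.212), without the variance trend (0.319) and without the filter on the mean percent (0.0657). The tail of TCF7L2 is built from alternative exons that decide which C-terminal domains the factor carries, and there the groups overlapped: the exon of 51 nt stood at 60% and 57.7%, the first exon of 73 nt at 47.8% and 46.9%, and the second of 73 nt at 15.2% and 16.5% (limma adjusted p = 0.793, 0.936 and 0.843). A donor pair 12 nt apart had its longer form at 90.3% and 89.0% (adjusted p = 0.807).

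**Figure D2:**
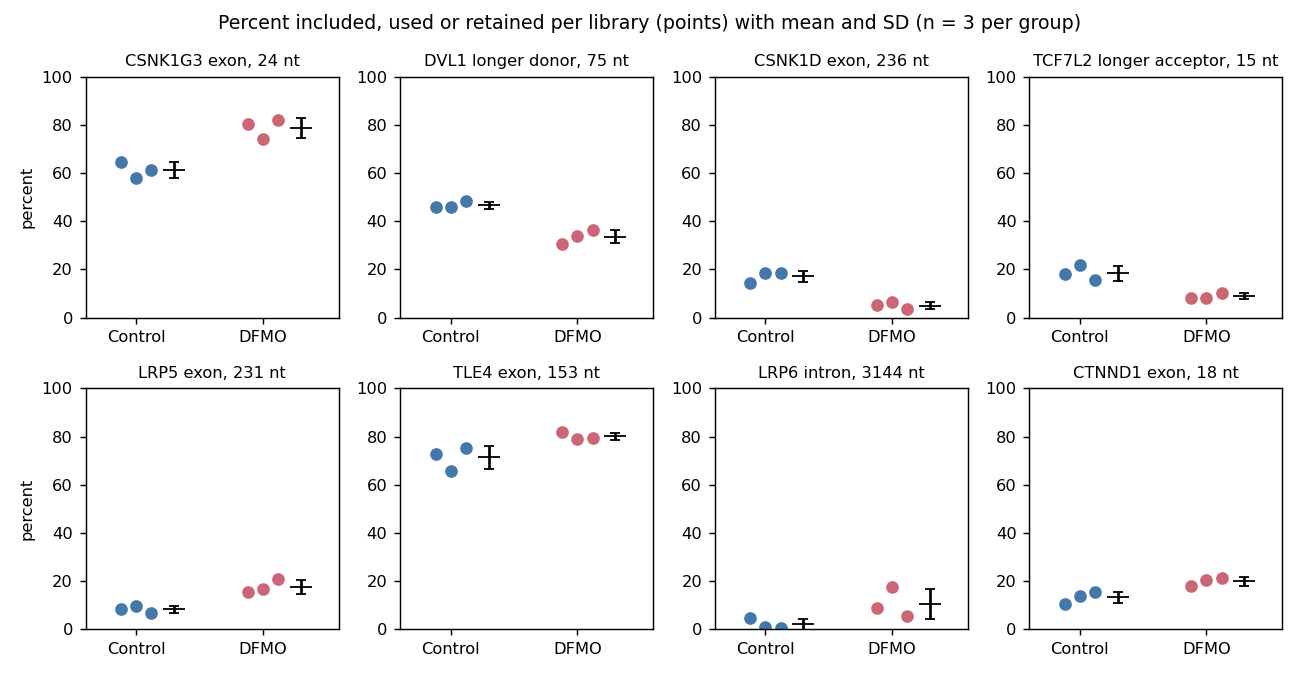
Percent (y axis, 0 to 100) in each library for 8 events of Wnt pathway genes; points are the 3 Control (blue) and 3 DFMO (red) libraries, and the bars beside them are the mean and SD. The CSNK1G3, DVL1 and CSNK1D events were called; in all 8 panels the points of the groups do not overlap.

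Other events with separate groups were smaller or less certain. In LRP5, a Wnt coreceptor, a stretch of 231 nt lies at chr11:68446927-68447157 and is wholly contained in no annotated exon of the gene. It was included at 8.39%, 9.56% and 6.46% in Control and at 15.2%, 16.5% and 20.7% with DFMO. Its means of 8.14% ± 1.57 and 17.5% ± 2.88 differed by 9.35 points (limma adjusted p = 0.0442). In TLE4, a Groucho corepressor, an exon of 153 nt at chr9:79706747-79706899 stood at 72.7%, 65.8% and 75.4% in Control and at 81.7%, 79.0% and 79.6% with DFMO. Its means of 71.3% ± 4.98 and 80.1% ± 1.45 differed by 8.81 points (limma adjusted p = 0.0479), and by 10.9 points without Control replicate 3. An LRP6 intron of 3144 nt at chr12:12121421-12124564 was retained at 4.67%, 0.81% and 0.45% in Control and at 8.84%, 17.3% and 5.22% with DFMO, so that the DFMO libraries were all higher and spread widely. Its difference was 8.48 points (limma adjusted p = 0.0159), and 11.1 points without DFMO replicate 3. Both of its ends carried reads, up to 15 per library upstream and up to 9 downstream. All 3 passed the adjusted p without reaching 10 points, and none held it throughout. As libraries were left out, the LRP5 value ran from 0.0574 to 0.141 and missed 0.05 each time, the TLE4 value ran from 0.0443 to 0.19 and passed only without Control replicate 3, and the LRP6 value missed 0.05 without Control replicate 3 (0.0684) or DFMO replicate 1 (0.0797). Without DFMO replicate 2, the library at 17.3%, the LRP6 intron had a mean percent under 5 and was not tested, and its groups stood at 1.98% and 7.03%, 5.05 points apart. On the percent scale the adjusted p was 0.084 for LRP5, 0.109 for TLE4 and 0.265 for LRP6, and without the variance trend 0.149, 0.305 and 0.201. Without the filter on the mean percent it was 0.11 for LRP5 and 0.08 for TLE4, and with the replicate number as a block it was 0.0604 for LRP5.

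ROR2, DKK3 and CTNND1 had events with separate groups that did not pass the adjusted p. ROR2, a receptor tyrosine kinase for non-canonical Wnt signals, had an exon of 126 nt, annotated in 2 processed transcripts only, at 39.2% ± 6.42 and 28.0% ± 6.06 (limma adjusted p = 0.371), on 40 to 61 reads per library. DKK3, a member of the Dickkopf family of secreted proteins, had a stretch of 336 nt at 13.7% ± 1.66 and 21.9% ± 4.28 (adjusted p = 0.307). No annotated exon of DKK3 contains this whole stretch. CTNND1 encodes p120 catenin, which binds cadherin tails, and its 18-nt exon shown above is coding in 10 transcripts. That exon stood at 10.4%, 13.5% and 15.3% in Control and at 17.8%, 20.4% and 21.4% with DFMO, and its means of 13.1% ± 2.47 and 19.8% ± 1.85 differed by 6.74 points without passing the test (adjusted p = 0.234).

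Exons of 3 to 27 nt, the microexons typical of neural transcripts, were tested in 3 members. They were the exons of CSNK1G3 and CTNND1 described above and a 17-nt exon of TLE1. The TLE1 exon stood at 84.5%, 85.9% and 90.02% in Control and at 88.3%, 75.8% and 89.0% with DFMO, with overlapping groups (-2.46 points, limma adjusted p = 0.845), and its low value came from DFMO replicate 2, on 43 reads. GSK3B, the kinase that phosphorylates beta-catenin, had an exon of 39 nt that is coding in 1 transcript, at 7.16% ± 0.659 and 4.80% ± 1.28 (adjusted p = 0.408). This exon is named here after its values were seen. The other tested GSK3B exon, of 99 nt, stood at 91.3% and 92.1% with overlapping groups (adjusted p = 0.877). CTNNB1 itself had 1 tested exon, of 77 nt, at 46.1% and 44.0% with overlapping groups (adjusted p = 0.819). APC had 4 tested exons and a pair of acceptor forms, all with overlapping groups and adjusted p from 0.45 to 0.946. A BCL9 donor pair, named here after its values were seen, had means 14.0 points apart, but its libraries ran from 16.0% to 30.4% in Control and from 24.4% to 48.1% with DFMO and overlapped (adjusted p = 0.123).

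The reads at each end of an intron bear on what its percent means, since RNA that holds the whole intron gives reads at both ends. Of the 17 tested introns, 9 had under 10% of their end reads at the smaller end: 2 in TLE1 and 1 each in CSNK1A1, CSNK1E, DKK3, DVL1, LRP5, RYK and TLE3. CSNK1A1 had the most reads of these. Its intron of 8622 nt at chr5:149496861-149505482, named here after its values were seen, had 649 to 948 reads per library at its upstream end and 1 to 8 at its downstream end. Its percent of 49.4% ± 2.05 in Control became 43.2% ± 3.26 with DFMO, a difference of -6.18 points with a limma adjusted p of 0.00432, under the size that a call asked for. The adjusted p missed 0.05 without DFMO replicate 2 (0.102) or DFMO replicate 3 (0.0743), on the percent scale (0.132), without the variance trend (0.518) and without the filter on the mean percent (0.117). For such an intron the percent follows reads that run on from 1 exon, and retention of the whole intron was barely detectable at this depth. Introns with reads at both ends included those of DVL3, FZD6, LRP6, TLE2 and TNIK, as the plot of end reads shows.

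**Figure D3:**
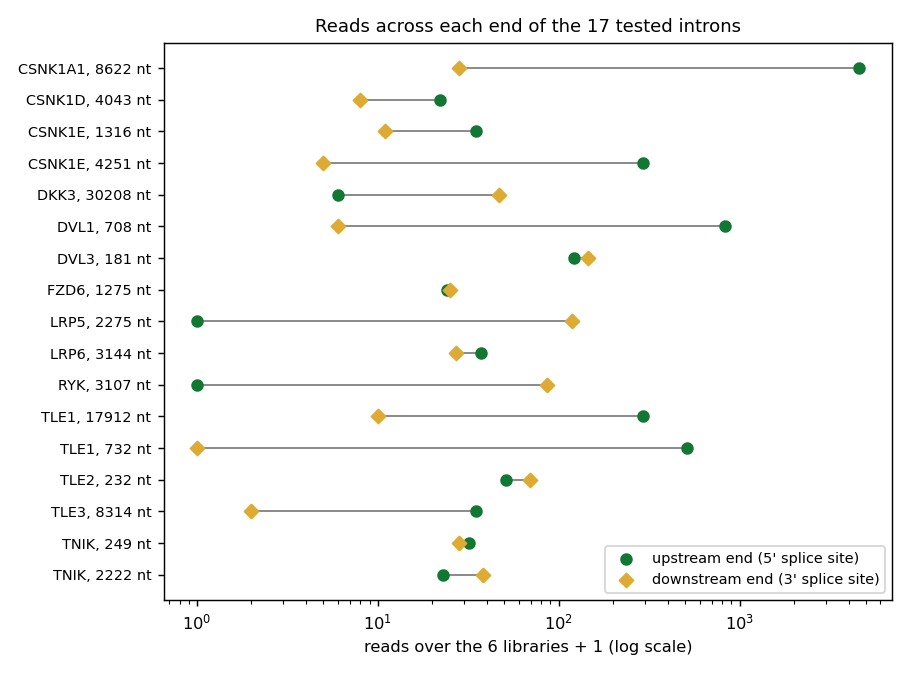
Reads across the upstream end (green circles) and the downstream end (yellow diamonds) of the 17 tested introns of Wnt pathway genes, summed over the 6 libraries plus 1, on a log x axis; each line joins the ends of 1 intron. The CSNK1A1 intron has 4589 reads upstream and 27 downstream, and the DVL1 intron 830 and 5.

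The amount of each transcript was followed by its summed reads, the reads behind all covered events of a gene, scaled to 1e+06 event reads in each library. The number of events differs between genes, so these levels are not compared between genes, and a value has no length scale. Events of 1 gene share transcripts and often the same reads, so they are not replicates. Counts of events with more or fewer reads are given below as description only, and they add no support to the test of the sum. Their share over all genes was not counted. Differences are log2 of the value plus 1, DFMO minus Control, and every fold is taken from them. Both thus understate the change of genes with few reads. Values given with exon events only are not sums. They are means over the exon events of the log2 of each event's scaled reads plus 1. The added 1 weighs more on a single event than on a sum, so their sizes are not comparable with those of the sums. Values with intron events only are sums. Of the 43 members tested, 9 rose, 14 fell and 20 did not pass (limma, adjusted p below 0.05). Over all 9643 genes tested, 24.1% rose and 29.1% fell, 53.2% in all, so passing this test was common in these libraries. Past 1.5-fold, 0 members rose and 4 fell, while 1.08% of all genes rose and 1.07% fell by that much. The 4 were TLE3, DKK1, TCF7 and BCL9L. The 0 for the rises is from limma at both thresholds, and 9 members rose by smaller amounts. The median member difference was -0.04, beside -0.01 for all genes, and 41.9% of the members were higher, beside 47.4% of all genes. For all 23 members that rose or fell the 3 DFMO libraries lay outside the range of the 3 Control libraries. The test used the same libraries, so this separation adds no support to it. WLS, SFRP1, FZD3, FZD6, GSK3A, TLE2 and TLE4 did not pass and had separate groups too. The share of all genes with separate groups in summed reads was not counted.

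**Figure D4:**
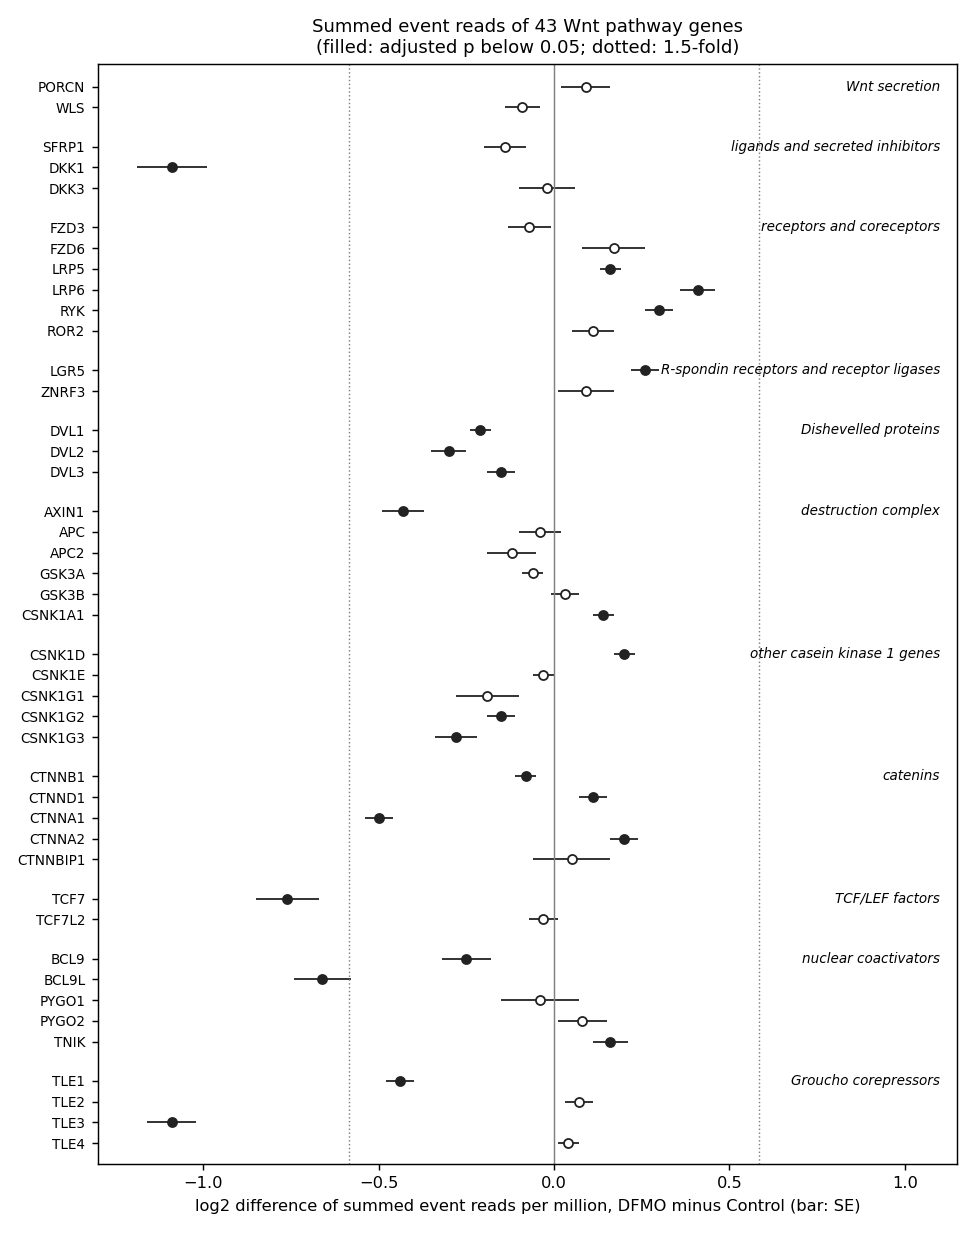
Log2 difference of scaled summed event reads (x axis, DFMO minus Control, on the scale of the value plus 1) for the 43 tested Wnt pathway genes, by role; bars are the SE, filled points passed the limma test and dotted lines mark 1.5-fold. TLE3 and DKK1 at -1.09 lie furthest left and LRP6 at 0.41 furthest right.

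Among the genes that make and carry ligands, none passed the test over all event classes. WLS, the carrier of Wnt ligands, had 67.9, 67.3 and 69.3 scaled summed reads in Control and 65.6, 59.7 and 66.2 with DFMO (log2 -0.09, limma adjusted p = 0.101). PORCN, the acyltransferase that adds the lipid, had means of 15 and 16 and overlapping groups (log2 0.09, adjusted p = 0.346), and it passed with intron events only (0.18, adjusted p = 0.0201). Of the ligand and secreted inhibitor group, WNT5A had 0 reads in every library over its 26 listed events.

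DKK1, the secreted inhibitor that binds LRP5 and LRP6 and is itself a common target of the pathway, fell. It had 8.40, 8.83 and 9.16 scaled summed reads in the Control replicates 1, 2 and 3 and 3.26, 3.32 and 4.29 in the DFMO replicates 1, 2 and 3. The highest DFMO library was thus well under the lowest Control library. The means were 8.80 ± 0.381 and 3.62 ± 0.581 (SD, n = 3 each), a difference of -1.09 on the log2 scale (SE 0.10, 2.13-fold lower on the plus 1 scale, limma adjusted p = 5.52e-09). All 5 covered events of DKK1, which make up this sum, had fewer reads with DFMO. The value was -0.78 with exon events only, where sizes are not comparable, and -0.66 with intron events only. It passed the test in both cases. SFRP1, a secreted Wnt antagonist, had means of 29.8 ± 1.70 and 26.9 ± 0.559 (log2 -0.14, adjusted p = 0.0572). It passed the test without Control replicate 2 (-0.18, adjusted p = 0.0328), with exon events only (-0.23, adjusted p = 0.00249), with intron events only (-0.13, adjusted p = 0.0306) and without the variance trend (adjusted p = 0.0468). DKK3 had 14.2, 16.4 and 14.4 against 13.5, 16.0 and 14.9 (adjusted p = 0.845).

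Receptors and coreceptors that passed the test all rose: 3 of the 6 tested, and 0 fell. Over all genes tested, 24.1% rose and 29.1% fell, and a group this small was not tested against those shares. LRP6, the coreceptor phosphorylated on ligand binding, had 43.4, 43.4 and 46.0 in Control and 59.8, 60.4 and 56.8 with DFMO (log2 0.41, SE 0.05, limma adjusted p = 5.86e-07), with more reads at 67 of its 70 covered events. With exon events only its difference was 0.19, still past the test. RYK, a Wnt receptor related to tyrosine kinases, had 83.8, 84.9 and 81.8 against 101, 104 and 103 (log2 0.30, SE 0.04, adjusted p = 1.52e-06). LRP5 had 174, 179 and 172 against 201, 192 and 195 (log2 0.16, SE 0.03, adjusted p = 0.00024). In each of these genes the DFMO libraries were all higher than the Control libraries. FZD3, FZD6 and ROR2 did not pass, with differences of -0.07, 0.17 and 0.11. FZD6 passed with intron events only (0.21, adjusted p = 0.0133), and ROR2 passed without Control replicate 1 (0.16, adjusted p = 0.0468).

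Of the receptors for R-spondins and the ligases that remove Frizzled receptors, LGR5 rose. It had 116, 118 and 111 in Control and 134, 137 and 142 with DFMO (log2 0.26, SE 0.04, limma adjusted p = 5.56e-06), and all 38 of its covered events had more reads with DFMO. ZNRF3, a ligase, had means of 16.5 ± 0.532 and 17.6 ± 1.97 (adjusted p = 0.359), and RNF43, the related ligase, had 0 reads in every library.

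All 3 Dishevelled genes fell, each by less than 1.5-fold, where 29.1% of all genes fell. The group was not tested against that share. DVL2 had 103, 95.9 and 111 in Control and 86.1, 81.7 and 82.2 with DFMO (log2 -0.30, SE 0.05, limma adjusted p = 1.27e-05), with fewer reads at all 53 covered events. DVL1 had 198, 193 and 200 against 171, 176 and 165 (log2 -0.21, SE 0.03, adjusted p = 2.01e-05). DVL3 had 188, 187 and 200 against 175, 177 and 167 (log2 -0.15, SE 0.04, adjusted p = 0.00131). The 3 DFMO libraries were below the 3 Control libraries in each gene.

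In the destruction complex, AXIN1 fell, CSNK1A1 rose and 4 of the 6 tested members did not pass, while 53.2% of all genes passed. AXIN1, the scaffold that holds the complex together, had 35.7, 38.5 and 34.0 in Control and 27.5, 26.9 and 24.9 with DFMO (log2 -0.43, SE 0.06, limma adjusted p = 5.94e-06), and stood at -0.27 with exon events only. CSNK1A1, the priming kinase of beta-catenin, had means of 165 ± 2.56 and 182 ± 5.07 (log2 0.14, adjusted p = 0.00149). APC, the other large scaffold, had 30.7, 30.7 and 28.1 against 26.8, 30.7 and 29.7, with overlapping groups (log2 -0.04, adjusted p = 0.663). GSK3B had 120, 124 and 120 against 124, 122 and 127, also overlapping (log2 0.03, adjusted p = 0.438). GSK3A and APC2 stood at -0.06 and -0.12, and APC2 passed the test without Control replicate 1 (-0.18, adjusted p = 0.0408). AXIN2, a widely used target gene of the pathway, had 3 to 49 reads per library over its 28 listed events, too few for a test.

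**Figure D5:**
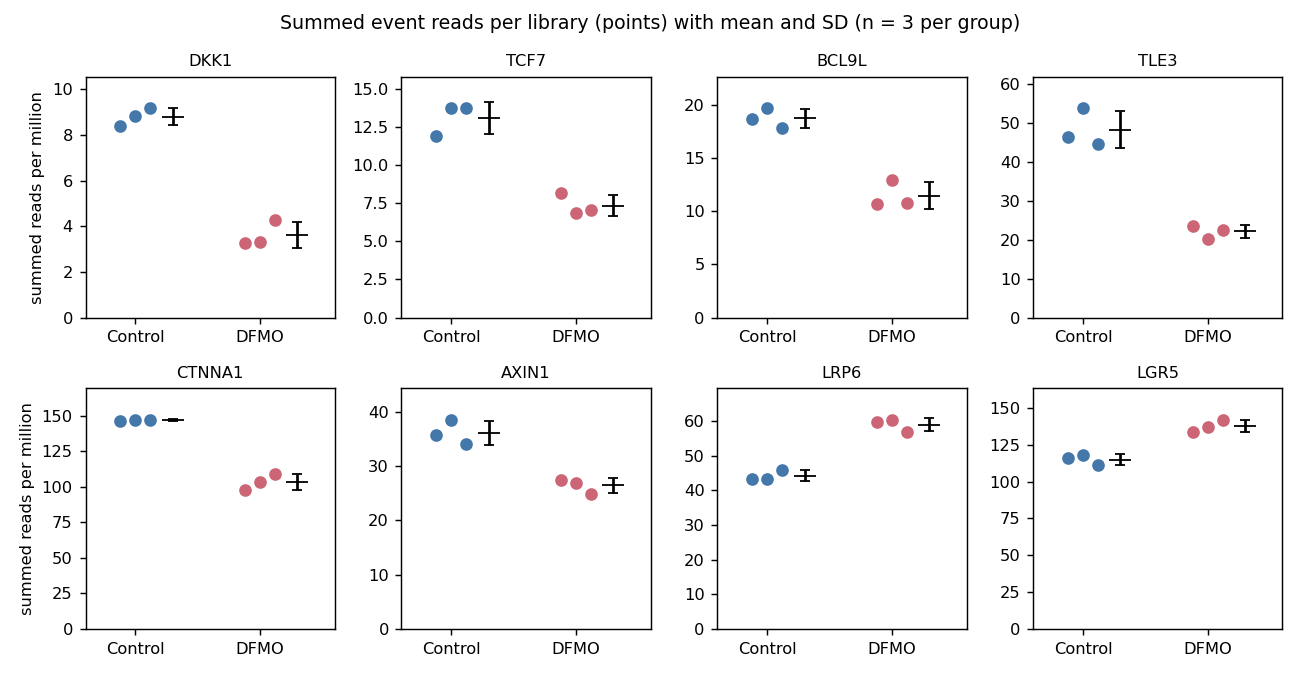
Summed event reads per 1e+06 event reads (y axis, from 0, own scale for each gene) in each library for 8 Wnt pathway genes; points are the 3 Control (blue) and 3 DFMO (red) libraries, and the bars beside them are the mean and SD. The DFMO points lie below the Control points for DKK1, TCF7, BCL9L, TLE3, CTNNA1 and AXIN1 and above them for LRP6 and LGR5.

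The other casein kinase 1 genes went both ways. CSNK1G3 had 47.7, 46.8 and 43.2 in Control and 39.7, 34.8 and 38.6 with DFMO and fell (log2 -0.28, SE 0.06, limma adjusted p = 0.000445; -0.18 with exon events only), while the share of its transcripts with the 24-nt exon was higher. CSNK1G2 fell by 0.15 on the log2 scale (adjusted p = 0.00161) and by 0.09 with exon events only (adjusted p = 0.042). CSNK1D had 136, 140 and 138 against 157, 158 and 162 and rose (log2 0.20, SE 0.03, adjusted p = 3.11e-05). CSNK1E and CSNK1G1 did not pass, with -0.03 and -0.19. CSNK1G1 passed without Control replicate 3 (-0.25, adjusted p = 0.0315), without DFMO replicate 1 (-0.28, adjusted p = 0.0129), with intron events only (-0.21, adjusted p = 0.00958) and with the replicate number as a block (-0.19, adjusted p = 0.0439).

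CTNNB1, beta-catenin itself, fell by the smallest amount of the 14 members that fell. It had 321, 332 and 320 scaled summed reads in Control and 299, 306 and 316 with DFMO, so that the groups lay just apart (log2 -0.08, SE 0.03, limma adjusted p = 0.0284). That call was lost without Control replicate 2 (adjusted p = 0.135), DFMO replicate 1 (0.148) or DFMO replicate 2 (0.0742), under median scaling (0.0802), without the variance trend (0.137) and with exon events (0.103) or intron events (0.114) only. CTNNA1, alpha-catenin, which ties the cadherin and beta-catenin complex to actin, fell more. It had 146, 147 and 147 in Control and 97.8, 103 and 109 with DFMO (log2 -0.50, SE 0.04, adjusted p = 1.15e-09), with fewer reads at all 60 covered events. CTNNA2, the neural alpha-catenin, rose from 102 ± 4.05 to 117 ± 3.28 (log2 0.20, adjusted p = 0.000236). CTNND1 rose from 107 ± 2.88 to 116 ± 4.20 (log2 0.11, adjusted p = 0.0182), a call that was lost without Control replicate 1 (0.0652), Control replicate 2 (0.0536) or DFMO replicate 1 (0.118), with exon events only (0.101) and without the variance trend (0.0634). CTNNBIP1, which blocks the binding of beta-catenin to TCF factors, had means of 3.73 and 3.89 and overlapping groups.

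Of the 4 TCF/LEF factors, 2 had enough reads for the test. TCF7 fell, with 11.9, 13.7 and 13.7 in Control and 8.16, 6.84 and 7.02 with DFMO. The means were 13.1 ± 1.07 and 7.34 ± 0.716 (SD, n = 3 each), with log2 -0.76 (SE 0.09, 1.69-fold lower on the plus 1 scale, limma adjusted p = 2.81e-07). All 15 covered events had fewer reads. With exon events only the difference was -0.37, still past the test. TCF7L2 had 85.1, 90.2 and 85.4 against 85.8, 83.9 and 86.3, with overlapping groups (log2 -0.03, adjusted p = 0.626). LEF1 had 84, 111 and 112 reads in the Control replicates and 82, 80 and 40 in the DFMO replicates over all its listed events, and TCF7L1 had 190, 138 and 118 against 94, 119 and 116, and both were left untested because no event was covered in every library.

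Among the nuclear coactivators, BCL9L and BCL9, which link beta-catenin to the Pygopus proteins, both fell. BCL9L had 18.7, 19.7 and 17.9 in Control and 10.7, 13.0 and 10.8 with DFMO (log2 -0.66, SE 0.08, 1.59-fold lower on the plus 1 scale, limma adjusted p = 5.87e-07), with fewer reads at all 18 covered events. Its difference was -0.33 with exon events only. BCL9 fell from 35.6 ± 3.28 to 29.8 ± 1.63 (log2 -0.25, adjusted p = 0.00371), and did not pass with exon events only (adjusted p = 0.0568). TNIK, a kinase that binds TCF7L2, had 47.6, 45.7 and 49.3 against 52.9, 53.5 and 53.3 and rose (log2 0.16, SE 0.05, adjusted p = 0.00912). The TNIK call was lost without Control replicate 2 (0.13, adjusted p = 0.053) and with exon events only (0.07, adjusted p = 0.0996). PYGO1 and PYGO2 did not pass, with -0.04 and 0.08.

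The Groucho corepressors split. TLE3 had 46.4, 53.6 and 44.5 in Control and 23.6, 20.2 and 22.4 with DFMO. Its means of 48.2 ± 4.85 and 22.1 ± 1.71 (SD, n = 3 each) differed by -1.09 on the log2 scale (SE 0.07, 2.13-fold lower on the plus 1 scale, limma adjusted p = 4.51e-11). All 47 covered events, which make up this sum, had fewer reads with DFMO. The difference was -0.54 with exon events only and -0.95 with intron events only. TLE1 fell too, from 102, 103 and 105 to 74.6, 78.8 and 74.3 (log2 -0.44, SE 0.04, adjusted p = 1.03e-08). TLE2 had 66.1, 68.3 and 64.9 against 68.4, 70.4 and 70.4 (log2 0.07, adjusted p = 0.183), and TLE4 had 139, 141 and 139 against 146, 141 and 143 (log2 0.04, adjusted p = 0.359), and neither passed. On the plus 1 scale, the summed reads of the 4 family members thus ran from 2.13-fold lower to 1.05-fold higher.

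In all, 11 members were not tested for summed reads. FZD1 and FZD2 have no event in the table. WNT5A and RNF43 had 0 reads, FZD5 had 0 to 12, AXIN2 3 to 49, LEF1 40 to 112, TCF7L1 94 to 190 and ROR1 190 to 369 reads per library. LGR4 and AMER1 had 1 covered event each, and LGR4 had 790 to 1143 reads over all its listed events, at 9.80 to 11.1 reads per 1e+06 event reads. A gene with few exons gives few splicing events, so a short list of events says nothing of its expression. How the authors' counting treated reads shared by similar genes, such as those of the casein kinase 1 and TLE families, no source used here states.

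The rest of the pathway, a list of 119 further genes also chosen with earlier results of these data known, had 57 with enough reads. Of these, 10 rose, 28 fell and 19 did not pass (limma), with a median of -0.12, beside 24.1% rising and 29.1% falling over all genes. EPHB3, an ephrin receptor gene, fell furthest, from 10.3 ± 0.569 to 5.88 ± 0.711 (log2 -0.72, SE 0.09, adjusted p = 1.12e-06), and was the 1 gene of this list past 1.5-fold. With exon events only it stood at -0.36. It belongs to the common target genes, of which 4 of the 10 listed had enough reads, and all 4 fell. The other genes of that group were not tested, so they are not known to have fallen. The group was chosen with earlier results of these data known and leaves out other targets. Its count thus does not stand for targets of the pathway at large. The other 3 were CCND1, the cyclin of G1 (-0.43), EPHB2 (-0.36) and NRCAM, a neural adhesion molecule (-0.31), which is named after its values were seen. Of the genes for planar polarity and the non-canonical arm, 6 of 9 fell, among them VANGL2 (-0.34), and DAAM1, a formin that binds Dishevelled, rose (0.32). CTNNAL1, a relative of alpha-catenin, fell by 0.54 on the log2 scale. CTBP2, a corepressor, fell by 0.36, the tankyrase TNKS2 by 0.35, the DKK1 coreceptor KREMEN2 by 0.34, and the ubiquitin ligase genes SIAH2 and CUL1 by 0.31 each. FRZB, a secreted antagonist, rose (0.38). With exon events only, where sizes are not comparable with those of the sums, 7 of these genes are given here. They are CTBP2 (-0.20), DAAM1 (0.14), EPHB2 (-0.21), FRZB (0.24), KREMEN2 (-0.16), TNKS2 (-0.18) and VANGL2 (-0.20), all past the test. DAAM1 stood at 0.18 with intron events only.

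DKK1, picked here as the tested secreted inhibitor with the largest change, has several matches to the core motif of TCF/LEF factors in its promoter. The 250 nt before its start in RefSeq (GRCh38.p14), at chr10:52314031-52314280 on the plus strand, are printed with the matches in capitals. The motifs searched were CTTTGA and CTTTGT on both strands, and a match to either counts, with no overlap between matches to the 2 motifs possible at the same place.
DKK1: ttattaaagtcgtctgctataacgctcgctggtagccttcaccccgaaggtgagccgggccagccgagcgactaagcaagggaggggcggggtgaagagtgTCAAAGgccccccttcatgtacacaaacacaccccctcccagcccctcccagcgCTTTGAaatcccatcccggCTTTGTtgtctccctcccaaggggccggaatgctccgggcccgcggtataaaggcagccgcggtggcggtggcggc
The window holds 3 matches. Of all 35116 promoter windows of this length, 22.8% hold at least 1 match and 0.584% hold 3 or more. Of the 54 members, 41 matched an entry of the promoter table, and 16 of their 64 promoters (25.0%) hold a match, close to the share over all genes. Among the other members, CTNNA1 and TLE4 have 2 promoters with a match. TCF7, TLE3, CTNNA2, TCF7L2, PORCN and ROR2 have 1 each. AXIN1, TLE1, DVL1, DVL2 and DVL3 have no match, and BCL9L has no entry in the promoter table. A match is a description of letters and not a binding site, and any part of such matches in the changes was not tested.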

How the data were processed

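RNA of 3 Control and 3 DFMO libraries of SKNBE2 was read as stranded mRNA libraries, per the labels' protocols. The authors deposited 1 table. Its unit is the percent of inclusion, retention or site use, per event and library, and the deposited quality text beside each percent carries a coverage score and the reads for and against the event. The build is GRCh38, per the submitters' processing notes, and how reads were aligned and events quantified is not given in the sources used here. All 721551 events were read, of which 1340 without a gene symbol stayed out of gene sums.

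Entry to the test took 10 reads and a coverage score of LOW, OK or SOK in every library and a mean percent between 5 and 95. The log2 odds (offset 0.5) of all genes went into limma 3.58.1 under R 4.3.3 (robust, variance trend on the expected counting variance), with two-sided p adjusted by Benjamini-Hochberg within each event class. Summed reads were fitted as log2 of reads per 1e+06 event reads plus 1, for genes with a mean of at least 1, adjusted over 9643 genes. They are a stand-in for gene counts: the forms of a splice site pair repeat the same reads, and an included exon is read at both junctions. Depth differed by library as given in the text, and alternatives were other offsets, scales, filters, event classes, a replicate block and the omission of each library.

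The members, role groups and lists were chosen with earlier results of these data known. Named are called events, the 12 largest differences with separate groups (at most 2 per gene), genes that rose or fell, the member with the most events in each role, up to 12 genes of the wider list, exons of 3 to 27 nt, and TCF7L2, TCF7, LEF1, TCF7L1, CTNNB1, GSK3B, APC and AXIN2. Exon sequences come from GENCODE 29 transcripts and the promoter from the RefSeq table. No protein sequence or genome was used here.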

Additional observations from a re-analysis of the deposited data

How the results depend on the processing

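The 5 called member entries became 2 on the percent scale, 0 without the variance trend (limma, with 18 at an unadjusted p below 0.05) and 3 without the filter on the mean percent, and 1 to 9 when each library was left out in turn. They stayed at 5 with an offset of 0.1, a quasi-binomial model, at least 30 reads or a score of OK or better. Over all genes the 504 called entries became 14 without the variance trend and 316 without DFMO replicate 1. The cause was not tested. Members that rose numbered 7 to 10 and members that fell 13 to 15 over all settings, and 0 of the 23 turned sign. Past 1.5-fold, 1 member fell with exon events only, where each event has 1 added before its log, and 3 with intron events only, against 4. Median scaling moved the calls over all genes from 24.1% higher and 29.1% lower to 26.2% and 26.9%.

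Values that turned sign had not passed the test. The TLE1 17-nt exon was at 1.80 points without DFMO replicate 2 and ran from -4.77 to 1.80 as libraries were left out. Summed reads (log2) of DKK3 were at 0.02 with exon events only and at 0.04 without Control replicate 2 or DFMO replicate 1 (lowest -0.07). TCF7L2 was at 0.01 with intron events only and at 0.00 without Control replicate 2 (lowest -0.04). CTNNBIP1 was at -0.03 without Control replicate 1 and -0.02 without DFMO replicate 2 (highest 0.15). Without DFMO replicate 1, APC was at 0.02 (lowest -0.08), CSNK1E at 0.00 (lowest -0.04) and PYGO1 at 0.09 (lowest -0.17).

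Replicate numbers do not pair the libraries: deviations of libraries with the same number correlated at -0.02, 0.00 and -0.01 over exons and at -0.02, -0.01 and -0.03 over summed reads. With the replicate number as a block, 5 member entries were called, 9 members rose and 15 fell, and the wider list had 38 changed genes. The block took the LRP5 exon past 0.05 (adjusted p = 0.0604) and brought in CSNK1G1, and it changed no other call of a named event or member. Depth limits the events with under 100 reads per library, among them those of ROR2 and TLE1.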
